A study of Saccharomyces cerevisiae with 15 samples.

Results

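The comparison described here set the Pdr1-Cyc8 fusion expressed in cells without their own PDR1 gene against the Pdr1-Sin3 fusion, in the budding yeast Saccharomyces cerevisiae. Members were chosen by sample title: the 3 arrays titled for the Pdr1-Cyc8 fusion in a Dpdr1 strain (group Pdr1-Cyc8 Dpdr1) and the 3 titled for the Pdr1-Sin3 fusion (group Pdr1-Sin3), which together are 6 of the 15 arrays of the series. In Pdr1-Cyc8 Dpdr1 the endogenous PDR1 was deleted, whereas the labels of Pdr1-Sin3 name the fusion and no deletion. The corepressor joined to Pdr1 and the PDR1 genotype therefore differed together, and which of them a difference goes with cannot be told apart. All 6 cultures carried a Pdr1 fusion, which the design calls a dominant-negative transcription factor, and all were growing logarithmically in synthetic dextrose medium at 30 °C. The other 9 arrays, 3 each of Pdr1-Cyc8 with no named deletion, Dpdr1 without a fusion and an empty vector, entered the fit and are given as context. Strain background, plasmid, promoter, the parts of each protein that the fusions hold, and the number of transformants behind a group were not stated in the material used.

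Pdr1 is a transcription factor of the zinc cluster type that, together with its relative Pdr3, activates the pleiotropic drug resistance (PDR) genes. Its targets include plasma membrane efflux pumps of the ABC family and enzymes of membrane lipid metabolism. Cyc8, also called Ssn6, works with Tup1 as a corepressor of genes for flocculation, glucose use, low oxygen and mating type. Sin3 is the scaffold of histone deacetylase complexes built around Rpd3, which are known for repressing early meiotic genes and INO1. The comparison asks how the transcript levels of cells with these different repressor fusions differ.

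The deposited table gave 1 linear intensity per probe set and array, and levels below are log2(normalized signal + 16), so a difference of 1 is a doubling only for signals well above 16. Folds below are likewise folds of signal + 16, which are smaller than folds of the signal itself where signals are low. Of 9335 probe sets, 60 controls were left out and 9275 were tested. Median signal was 118.7 to 141.0 on the 6 arrays, with 858 to 1129 probe sets under a signal of 16 on each. Replicates of a group correlated at 0.966 to 0.977 across probe sets. The BioB and BioC hybridization controls placed the 6 arrays in 1 set, since log2 BioC minus BioB was -0.39 to -0.24 in Pdr1-Cyc8 Dpdr1 and -0.70 to -0.24 in Pdr1-Sin3, against 1.05 to 1.34 on the other 9 arrays. Other controls differed inside that set. The CreX control had a mean signal of 8392.5 to 11034.3 in Pdr1-Cyc8 Dpdr1 and 13720.2 to 14203.1 in Pdr1-Sin3, and the 18S rRNA controls averaged 51.9 to 63.1 in Pdr1-Cyc8 Dpdr1 and 105.5 to 133.6 in Pdr1-Sin3. The part of these controls in the results was not tested. The labels give no mating type. Of 7 a-cell genes 6 had values below 0, with a median log2 difference of -0.79. The 3 and 3 arrays did not overlap in 6 of them, where 26.8% of all probe sets did not. None was called in the shared fit. A fit of the 6 arrays alone called 3 of them lower, where it called 3.11% of all probe sets lower. The part of the a-cell genes in the results was not tested. STE2, the alpha-factor receptor of a cells, averaged 10.02 in Pdr1-Cyc8 Dpdr1 and 9.85 in Pdr1-Sin3. It was the 1 a-cell gene with a value above 0, and the lowest value on that list was -1.46. MF(ALPHA)1, the alpha-factor gene, averaged 7.21 in Pdr1-Cyc8 Dpdr1 and 7.73 in Pdr1-Sin3. None of 4 alpha-cell and 7 auxotrophic marker genes was called.

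The genes used to build the strains were examined first. PDR1 had levels of 6.79, 7.21 and 6.81 in Pdr1-Cyc8 Dpdr1, against 8.40, 8.81 and 8.80 in Pdr1-Sin3. All 3 Pdr1-Cyc8 Dpdr1 arrays were lower, with no overlap, and the difference was -1.73 (SE 0.227, limma adjusted p = 0.000651), or 3.32-fold. PDR1 averaged 4.70 in Dpdr1 cells without a fusion, 9.07 in Pdr1-Cyc8 cells and 9.08 with the empty vector, so Pdr1-Cyc8 Dpdr1 lay between the deletion and the groups with no named deletion. CYC8 had levels of 11.79, 11.97 and 10.99 in Pdr1-Cyc8 Dpdr1, against 8.60, 8.85 and 8.53 in Pdr1-Sin3. It was 7.58-fold higher (log2 difference 2.92, SE 0.27, adjusted p = 2.11e-05). SIN3 had levels of 8.08, 8.29 and 8.60 in Pdr1-Cyc8 Dpdr1, against 11.58, 11.46 and 11.31 in Pdr1-Sin3. It was 8.74-fold lower (log2 difference -3.13, SE 0.216, adjusted p = 2.18e-06). Each group was high in the transcript of its own corepressor, and whether a probe set read the fusion, the endogenous gene or both was not tested. No other subunit on a list of 17 corepressor genes was called, TUP1 and RPD3 included, with log2 differences of -0.14 and 0.11.

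Across all probe sets, 235 were called at an adjusted p under 0.05, 77 higher and 158 lower in Pdr1-Cyc8 Dpdr1. They make up 2.53% of those tested, 0.830% higher and 1.70% lower. The median log2 difference over all probe sets was 0.03. With the values as deposited, without quantile normalization, 238 probe sets were called, and the split moved to 107 higher and 131 lower. Without Pdr1-Sin3 replicate 2 there were 175 calls, and without each other array of the 6 in turn 67 to 132. The called probe sets with a single annotated gene named 149 genes, of which 60 were higher and 89 lower. Most of the calls lay where the Pdr1-Cyc8 Dpdr1 arrays left the range of the rest of the series. Among the 77 higher calls, the 3 Pdr1-Cyc8 Dpdr1 arrays alone lay outside the range of the 9 other arrays in 44 and the 3 Pdr1-Sin3 arrays alone in 11. Among the 158 lower calls these counts were 85 and 35, with 4 probe sets where both groups lay outside on opposite sides. The 9 other arrays are those of the other set by the BioB and BioC controls. Over all probe sets, the 3 Pdr1-Cyc8 Dpdr1 arrays lay above the other 12 arrays on 4.32% and below them on 3.71%. For the 3 Pdr1-Sin3 arrays these shares were 1.96% and 0.765%.

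**Figure D1:**
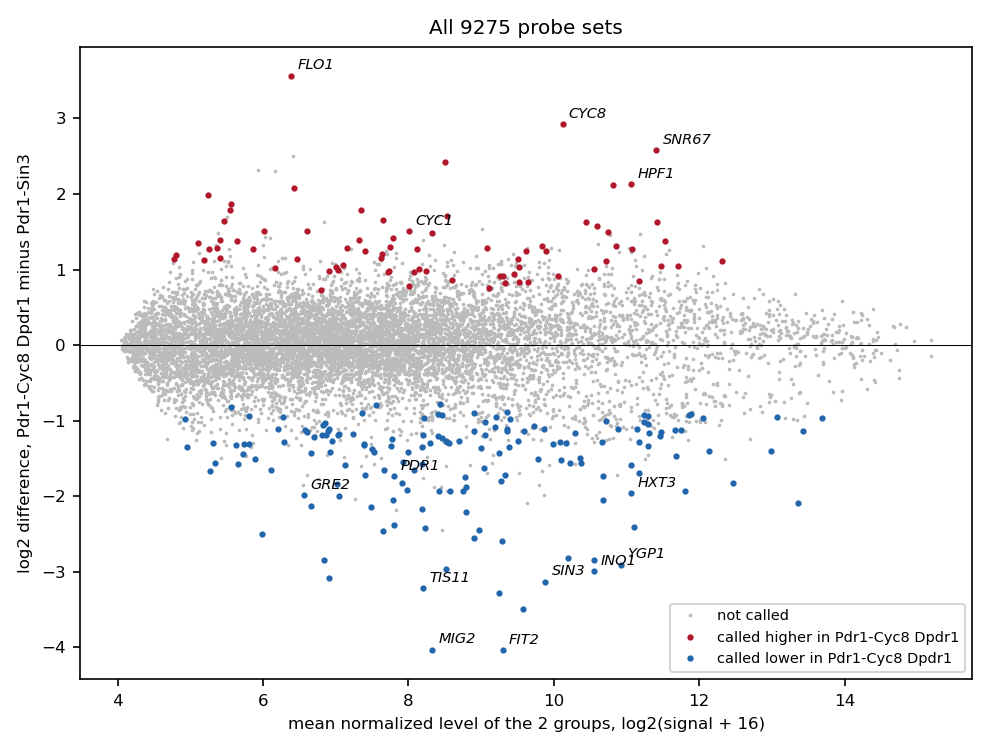
Log2 difference of Pdr1-Cyc8 Dpdr1 minus Pdr1-Sin3 (vertical axis) against the mean normalized level of both groups, log2(signal + 16) (horizontal axis), for 9275 probe sets. Red points are the 77 called higher and blue points the 158 called lower at a limma adjusted p under 0.05; FLO1, CYC8 and SNR67 lie at the top, and MIG2 and FIT2 at the bottom.

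Of the PDR targets, 6 were lower with Pdr1-Cyc8 in the deletion than with Pdr1-Sin3 and the others did not pass, PDR5 among them. Of 22 genes listed as PDR targets, 20 were measured (HXT9 and HXT11 had no probe set annotated to them alone), and all 20 were tested without a filter on low signal. The test called 6 lower and none higher, where 1.70% of all probe sets were called lower. The values of 16 were below 0, the median log2 difference was -0.81, and in 15 the 3 and 3 arrays did not overlap, where 26.8% of all probe sets did not. Averaged over the 20 genes and set against the empty vector mean, the arrays stood at -1.29, -1.33 and -1.31 in Pdr1-Cyc8 Dpdr1, against -0.62, -0.61 and -0.52 in Pdr1-Sin3. The 3 arrays of each group lay close together and the groups did not overlap; the number called lower was 4 to 6 with single arrays left out. Each array is a mean over a culture, so fewer cells expressing a gene and less RNA per cell cannot be told apart.

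Among the 6 transporters, YOR1 and SNQ2 were called lower, where 1.70% of all probe sets were. YOR1, an ABC pump for oligomycin and other organic anions, had levels of 7.12, 6.90 and 6.99 in Pdr1-Cyc8 Dpdr1, against 8.67, 9.08 and 8.71 in Pdr1-Sin3. No array overlapped, and YOR1 was 3.53-fold lower (log2 difference -1.82, SE 0.342, adjusted p = 0.0116). Its 6 other probe sets gave values of -1.65 to -0.85, and 1 of them was called. SNQ2, an ABC pump for 4-nitroquinoline oxide, had levels of 7.83, 7.71 and 8.01 in Pdr1-Cyc8 Dpdr1, against 9.24, 8.89 and 9.11 in Pdr1-Sin3. It was 2.34-fold lower (log2 difference -1.23, SE 0.263, adjusted p = 0.0226), and the call was lost without Pdr1-Cyc8 Dpdr1 replicate 1 or 2 or Pdr1-Sin3 replicate 1 or 3 (adjusted p = 0.0763 to 0.098). For both pumps all 3 Pdr1-Cyc8 Dpdr1 arrays lay below every other array of the series.

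PDR5, the major drug efflux pump, did not pass the test. Its levels were 9.38, 9.63 and 8.60 in Pdr1-Cyc8 Dpdr1, against 8.14, 9.14 and 8.81 in Pdr1-Sin3. The groups overlapped, the log2 difference was 0.51 (95% confidence interval -0.19 to 1.20, adjusted p = 0.464), and 4 of its 6 other probe sets had the opposite sign (-0.60 to 0.30 in all). The probe sets at both ends of that range were dim in both groups. Both groups, with means of 9.20 and 8.70, stood under the means of Dpdr1 (10.44) and the empty vector (10.84), on the other set of arrays. Pdr1-Cyc8, also on that other set, averaged 8.63. PDR15, a stress-induced relative of PDR5, had levels of 6.62, 6.74 and 6.65 in Pdr1-Cyc8 Dpdr1, against 7.50, 7.38 and 7.42 in Pdr1-Sin3. The groups did not overlap, but the value of -0.76 did not pass (adjusted p = 0.154, and 0.0457 in a fit of the 6 arrays alone). PDR10, the third pump of that subfamily, had a value of -0.08 (95% confidence interval -0.57 to 0.42), and TPO1, a polyamine exporter, -0.94 (adjusted p = 0.241).

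The 5 lipid genes of the PDR list included 2 called lower, where 1.70% of all probe sets were. PDR16, a phosphatidylinositol transfer protein, had levels of 7.13, 7.32 and 7.77 in Pdr1-Cyc8 Dpdr1, against 8.94, 8.91 and 9.08 in Pdr1-Sin3. It was 2.97-fold lower (log2 difference -1.57, SE 0.256, adjusted p = 0.00492). LAC1, a ceramide synthase subunit, had levels of 6.50, 5.85 and 6.30 in Pdr1-Cyc8 Dpdr1, against 7.74, 7.41 and 7.74 in Pdr1-Sin3. It was 2.67-fold lower (log2 difference -1.42, SE 0.227, adjusted p = 0.00437). In both genes the groups were apart, and Pdr1-Cyc8 Dpdr1 was below the other 12 arrays. ICT1, a lysophosphatidic acid acyltransferase, had a value of -1.17 that did not pass (adjusted p = 0.157, and 0.0193 in a fit of the 6 arrays alone). IPT1, which makes the most complex sphingolipids of yeast, had a value of -0.86 (adjusted p = 0.173). RSB1, a sphingoid base exporter, was dim in both groups, with a value of 0.02.

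Of the 9 other measured targets, GRE2 and YGR035C were called lower, where 1.70% of all probe sets were. GRE2, a methylglyoxal reductase, had levels of 5.82, 5.36 and 5.54 in Pdr1-Cyc8 Dpdr1, against 7.40, 7.48 and 7.79 in Pdr1-Sin3. It was lower by 1.98 on the log2 scale (SE 0.198, adjusted p = 3.76e-05), with a size that depended on the added constant, since the signal was low in Pdr1-Cyc8 Dpdr1: the difference was -2.41 with 1 added and -1.30 with 64. YGR035C, a gene of unknown function, had a log2 difference of -1.56 (adjusted p = 0.0304), was near the floor in Pdr1-Cyc8 Dpdr1, and lost its call with 1 added (0.0527) and without Pdr1-Cyc8 Dpdr1 replicate 1 or 3 or Pdr1-Sin3 replicate 1 or 3 (0.0914 to 0.128). PDR3, the partner regulator and itself a target, had levels of 6.999, 6.79 and 6.97 in Pdr1-Cyc8 Dpdr1, against 7.38, 7.13 and 7.13 in Pdr1-Sin3. The groups were apart by a small margin, and the value of -0.29 did not pass (adjusted p = 0.454). TVS1 had a value of -0.89 (adjusted p = 0.0596), and of its 2 other, dimmer probe sets 1 was called lower at -1.31 (0.0363) and the other had -0.52. CIS1 had a value of -0.66, YPL088W -0.61 and LAF1 -0.18. YLL056C and RTA1 had values above 0, 0.45 and 0.51, and did not pass (adjusted p = 0.528 and 0.341).

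**Figure D2:**
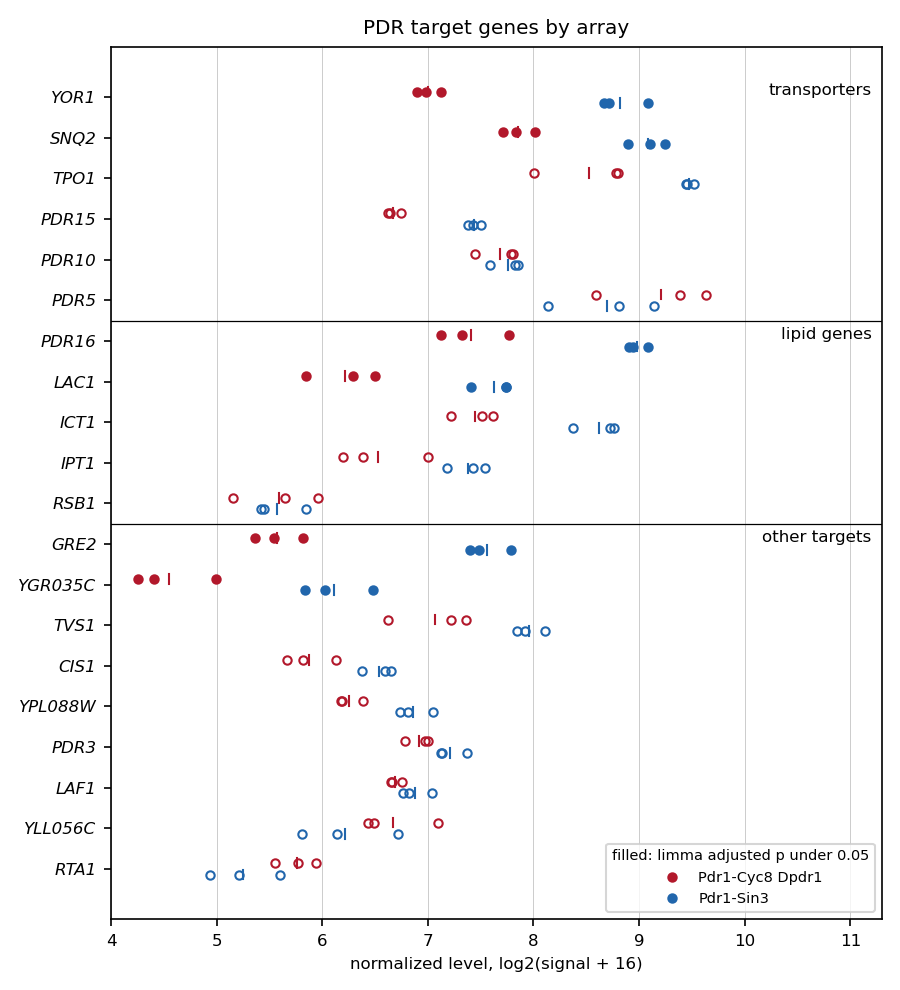
Normalized level, log2(signal + 16), of the 20 measured PDR targets on each of the 3 Pdr1-Cyc8 Dpdr1 arrays (red, above) and the 3 Pdr1-Sin3 arrays (blue, below); a bar marks the group mean and filled points mark the 6 genes called lower. YOR1, SNQ2, PDR16, LAC1, GRE2 and YGR035C separate the groups by 1.23 to 1.98, and PDR5 overlaps.

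Of the 34 gene lists examined, siderophore uptake had the lowest median. Of 7 genes for siderophores, the secreted iron chelators that yeast imports without making its own, 5 were called lower in Pdr1-Cyc8 Dpdr1 (1.70% of all probe sets), the median log2 difference was -1.93, and 6 showed no overlap (26.8% of all probe sets). With 1 array left out the test called 2 or 3 of them, and still 5 without Pdr1-Sin3 replicate 2. FIT2, a cell wall mannoprotein that helps to retain siderophores, had levels of 6.86, 7.24 and 7.74 in Pdr1-Cyc8 Dpdr1, against 11.38, 11.53 and 11.05 in Pdr1-Sin3. It was 16.4-fold lower (log2 difference -4.04, SE 0.449, adjusted p = 0.00011). FIT3, a protein of the same family, had levels of 9.81, 9.67 and 10.24 in Pdr1-Cyc8 Dpdr1, against 12.56, 12.54 and 11.83 in Pdr1-Sin3, a difference of -2.40 (SE 0.258, adjusted p = 8.58e-05). For FIT2 and FIT3 the 3 Pdr1-Sin3 arrays were above all other arrays of the series. FIT1, the remaining member of that family, had a value of 0.02.

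Of 4 siderophore transporters, ARN2, SIT1 and ENB1 were called lower, where 1.70% of all probe sets were. ARN2 had levels of 7.90, 7.43 and 7.55 in Pdr1-Cyc8 Dpdr1, against 10.04, 10.07 and 10.43 in Pdr1-Sin3, a difference of -2.55 (SE 0.537, adjusted p = 0.0211). SIT1 had levels of 7.46, 7.44 and 7.47 in Pdr1-Cyc8 Dpdr1, against 9.46, 9.39 and 9.30 in Pdr1-Sin3, a difference of -1.93 (SE 0.38, adjusted p = 0.0154). Both groups were tight and apart for both genes. The spread that the test used came from the other groups as well, where the SD of ARN2 reached 1.25 in Pdr1-Cyc8 and 1.16 in Dpdr1. ENB1, the enterobactin transporter, had a difference of -1.51 (adjusted p = 0.0176; 0.0574 to 0.0858 without Pdr1-Cyc8 Dpdr1 replicate 2 or 3 or Pdr1-Sin3 replicate 1 or 3), and ARN1 a value of -1.58 that did not pass (0.104). The ARN2 call was lost without any array but Pdr1-Sin3 replicate 2 (adjusted p = 0.0579 to 0.0913), and the SIT1 call without Pdr1-Cyc8 Dpdr1 replicate 1 or 2 or Pdr1-Sin3 replicate 1 or 3 (0.0533 to 0.0689). With 1 added, the ARN2 call was lost as well.

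Of 22 genes for reductive iron uptake and iron saving, 2 were called lower, where 1.70% of all probe sets were, and the median was -0.69. A fit of the 6 arrays alone called 6 lower, where it called 3.11% of all probe sets lower. HMX1, the heme oxygenase, had levels of 6.15, 6.50 and 6.98 in Pdr1-Cyc8 Dpdr1, against 8.01, 7.95 and 8.82 in Pdr1-Sin3, a difference of -1.72 (SE 0.299, adjusted p = 0.00686). TIS11, which degrades mRNAs of iron-using proteins in iron shortage, had levels of 6.11, 7.05 and 6.63 in Pdr1-Cyc8 Dpdr1, against 9.28, 9.81 and 10.33 in Pdr1-Sin3. The groups were far apart, with a difference of -3.21 (SE 0.703, adjusted p = 0.0247), and the call was lost whichever of the 6 arrays was left out (adjusted p = 0.0587 to 0.114). The TIS11 call was also lost with 1 added. FET3 and FTR1, the oxidase and the permease of the high-affinity iron uptake complex, had values of -1.06 (adjusted p = 0.0935, and 0.0341 in a fit of the 6 arrays alone) and 0.01. Averaged over the siderophore list and set against the empty vector, the Pdr1-Cyc8 Dpdr1 arrays stood at 0.08, 0.13 and 0.22. The Pdr1-Sin3 arrays stood at 2.04, 2.21 and 2.19. On the other set of arrays, the list stood at 1.13, 1.52 and 0.08 in Pdr1-Cyc8 and at 1.59, 1.38 and 0.71 in Dpdr1.

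Of 15 phosphate-regulated genes measured, 3 were called lower, where 1.70% of all probe sets were. The values of 14 were below 0, with a median of -0.95. The groups did not overlap in any of the 15, where 26.8% of all probe sets did not overlap. A fit of the 6 arrays alone called 8 lower, where it called 3.11% of all probe sets lower. Omission of single arrays left 1 lower call, or 0 without Pdr1-Sin3 replicate 1. PHO5, the main secreted acid phosphatase, had levels of 9.89, 9.61 and 9.93 in Pdr1-Cyc8 Dpdr1, against 11.82, 11.29 and 11.52 in Pdr1-Sin3. Its difference of -1.74 (SE 0.435, adjusted p = 0.047) lost its call with the values as deposited (0.0528), with 1 added (0.088) and whichever array was left out (0.0716 to 0.16). Its close relative PHO3, whose probe set could share signal with it, had a value of 0.38. SPL2, which restrains low-affinity phosphate transport, had a difference of -2.17 (adjusted p = 0.0239) and also lost its call without any 1 of the 6 arrays (0.0526 to 0.099). PHM6, a phosphate-regulated gene of unknown function, had a difference of -2.12 (adjusted p = 0.0101), lost only without Pdr1-Sin3 replicate 1 (0.0578). PHO84, the high-affinity phosphate transporter, had a value of -1.50 that did not pass (adjusted p = 0.293, and 0.00456 in a fit of the 6 arrays alone). On all 3 Pdr1-Sin3 arrays PHO5, SPL2 and PHM6 were above every other array of the series.

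**Figure D3:**
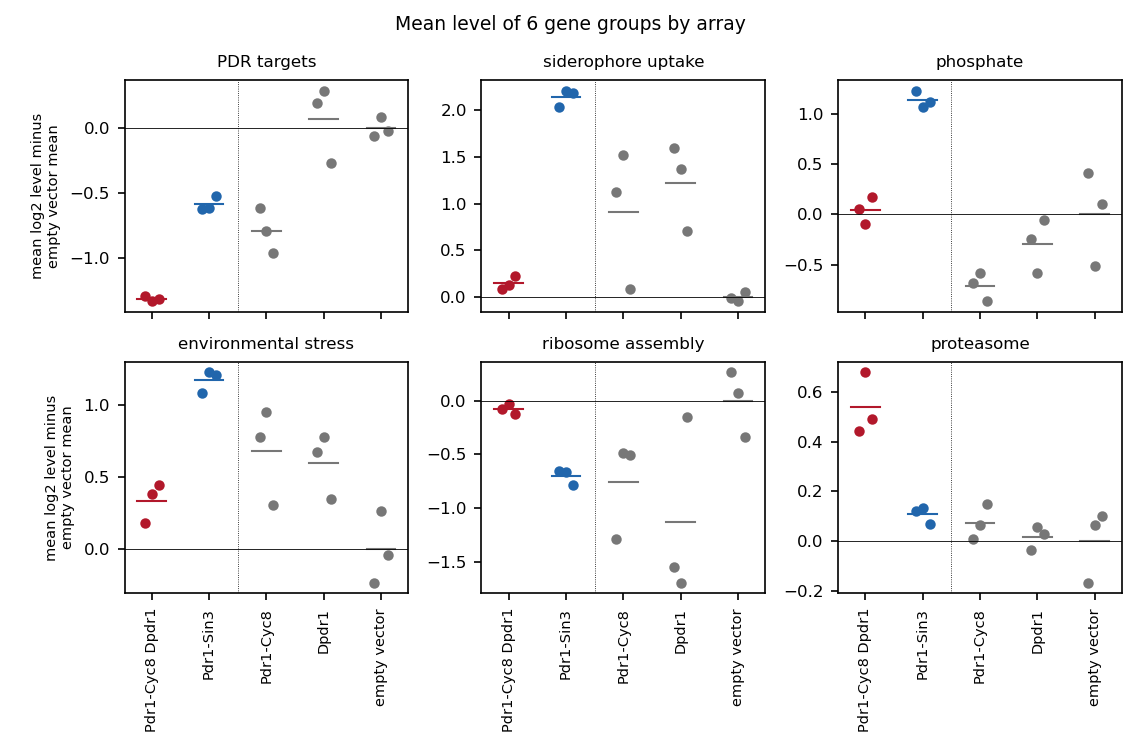
Mean log2 level of the genes of 6 lists on each array, minus the empty vector mean, for Pdr1-Cyc8 Dpdr1 (red), Pdr1-Sin3 (blue) and the 3 other groups (grey), which lie on the other set of arrays; points are arrays and bars are group means. The red and blue arrays do not overlap in any of the 6 panels, and for siderophore uptake the blue arrays reach 2.04 to 2.21. The panels show picked lists. On some lists not shown the groups overlap, such as hexose transporters (0.37 to 0.57 in Pdr1-Cyc8 Dpdr1, 0.31 to 0.43 in Pdr1-Sin3).

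Among glucose-related genes, MIG2 and HXT3 were lower, and the glucose-repressed genes were not called. MIG2, a glucose-induced zinc finger repressor, had levels of 6.25, 6.23 and 6.45 in Pdr1-Cyc8 Dpdr1, against 10.51, 10.26 and 10.25 in Pdr1-Sin3. It was 16.3-fold lower (log2 difference -4.03, SE 0.315, adjusted p = 6.2e-06), and the 9 other arrays lay between the groups. HXT3, a low-affinity glucose transporter induced by glucose, had levels of 10.27, 9.86 and 10.12 in Pdr1-Cyc8 Dpdr1, against 12.30, 11.83 and 11.98 in Pdr1-Sin3. It was 3.87-fold lower (log2 difference -1.95, SE 0.293, adjusted p = 0.00245), and Pdr1-Cyc8 Dpdr1 lay below all other arrays. HXT3 was the only call among 13 hexose transporters and sensors, whose median was 0.25. Of all probe sets, 1.70% were called lower and 0.830% higher. None of 25 glucose-repressed genes was called, with a median of 0.14, and CAT2, a carnitine acetyltransferase, had the smallest p of them, with a value of -0.80 (adjusted p = 0.0931).

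INO1 and YGP1 were also low in Pdr1-Cyc8 Dpdr1 alone. INO1, the inositol-3-phosphate synthase, had levels of 9.03, 8.82 and 9.33 in Pdr1-Cyc8 Dpdr1, against 11.63, 12.29 and 12.23 in Pdr1-Sin3. It was 7.94-fold lower (log2 difference -2.99, SE 0.493, adjusted p = 0.00519), and it was the only call among 16 genes of inositol and phospholipid synthesis and among 22 early meiotic genes, a list that also holds it. Of all probe sets, 1.70% were called lower. YGP1, a secreted glycoprotein induced by starvation, had levels of 9.29, 9.29 and 9.83 in Pdr1-Cyc8 Dpdr1, against 12.25, 12.48 and 12.39 in Pdr1-Sin3. It was 7.49-fold lower (log2 difference -2.90, SE 0.286, adjusted p = 3.76e-05). For both genes the Pdr1-Sin3 arrays lay within the range of the other groups, whose means were 12.05 to 12.76 for INO1 and 11.88 to 13.08 for YGP1. ICY1, with levels of 7.86, 7.87 and 8.24 in Pdr1-Cyc8 Dpdr1 and 10.65, 10.53 and 10.57 in Pdr1-Sin3, had a difference of -2.59 (SE 0.511, adjusted p = 0.0154). That call was lost without Pdr1-Cyc8 Dpdr1 replicate 1 or 2 or Pdr1-Sin3 replicate 1 or 3 (adjusted p = 0.0577 to 0.0688). ECL1, known for extending chronological life span, had levels of 6.68, 7.13 and 7.24 in Pdr1-Cyc8 Dpdr1 and 9.20, 9.58 and 9.52 in Pdr1-Sin3, a difference of -2.42 (SE 0.22, adjusted p = 2.11e-05). As with MIG2, the 9 other arrays of ECL1 lay between the groups.

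Of 33 genes of the environmental stress response, 8 were called lower in Pdr1-Cyc8 Dpdr1, YGP1 among them, and 1 higher, where 1.70% and 0.830% of all probe sets were. The values of 31 were below 0, the median was -0.86, and 22 showed no overlap (26.8% of all probe sets). The lower calls numbered 6 without Pdr1-Cyc8 Dpdr1 replicate 3 and 3 or 4 without each other array. GPP2, a glycerol-3-phosphatase, had levels of 7.44, 8.15 and 7.96 in Pdr1-Cyc8 Dpdr1, against 9.85, 9.59 and 9.74 in Pdr1-Sin3. It was 3.66-fold lower (log2 difference -1.87, SE 0.28, adjusted p = 0.00245). SSA4, a stress-induced Hsp70 chaperone, had a difference of -1.72 (adjusted p = 0.0139), and SOL4, a 6-phosphogluconolactonase, -1.56 (adjusted p = 0.0226). The higher call, GRE1, a hydrophilin, had a difference of 0.995 (adjusted p = 0.0381), lost without any array but Pdr1-Cyc8 Dpdr1 replicate 1 (0.0685 to 0.162). The GRE1 call was also lost with 1 added (0.0603), in a fit of the 6 arrays alone (0.0573) and with a replicate block (0.056). Of 12 glycogen genes GSY2, a glycogen synthase, was lower by 1.30 on the log2 scale (adjusted p = 0.0228), and of 9 trehalose genes TSL1, a subunit of trehalose synthase, by 1.28 (adjusted p = 0.0287). SSA4 lost its call without Pdr1-Cyc8 Dpdr1 replicate 2 or Pdr1-Sin3 replicate 1 or 3 (adjusted p = 0.0588 to 0.0645), SOL4 and TSL1 without any but Pdr1-Cyc8 Dpdr1 replicate 3 (0.057 to 0.125), and GSY2 without any but Pdr1-Cyc8 Dpdr1 replicate 2 (0.0617 to 0.0949).

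The largest difference among the higher calls was that of FLO1. FLO1, a flocculin that binds neighbouring cells together, had levels of 8.28, 8.40 and 7.84 in Pdr1-Cyc8 Dpdr1, against 5.43, 4.17 and 4.23 in Pdr1-Sin3. The groups were apart and the log2 difference was 3.56 (SE 0.401, adjusted p = 0.000118); with 1 added to the signal it was 5.33, and with 64 it was 2.19, because FLO1 was near the floor in Pdr1-Sin3. Its probe set could also read the close relatives FLO5 and FLO9. FLO1 averaged 6.73 in Pdr1-Cyc8 cells, 4.21 in Dpdr1 and 4.27 with the empty vector. The other 4 flocculin genes measured had values of -0.16 to 0.37 and were not called. UTR2, a chitin transglycosylase of the cell wall, had levels of 12.35, 12.12 and 12.26 in Pdr1-Cyc8 Dpdr1, against 10.91, 10.99 and 9.93 in Pdr1-Sin3, a difference of 1.63 (SE 0.3, adjusted p = 0.0101; 0.0548 without Pdr1-Sin3 replicate 3). TIR3, a cell wall mannoprotein, had levels of 11.74, 10.80 and 11.62 in Pdr1-Cyc8 Dpdr1, against 9.78, 9.83 and 9.83 in Pdr1-Sin3. Its difference was 1.58 (SE 0.292, adjusted p = 0.0105), and the call was lost without replicate 1 of either group (0.0575 and 0.0531). HPF1, another mannoprotein, had levels of 12.11, 11.96 and 12.32 in Pdr1-Cyc8 Dpdr1, against 9.98, 9.84 and 10.18 in Pdr1-Sin3. It was 4.37-fold higher (adjusted p = 0.0374), a call lost whichever array was left out (0.0911 to 0.118). The HPF1 call was also lost with 1 added and with a replicate block. On the list of 26 wall mannoproteins, TIR3 and HPF1 were the higher calls, YGP1 was the lower call and the median was -0.02. Of all probe sets, 0.830% were called higher and 1.70% lower.

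**Figure D4:**
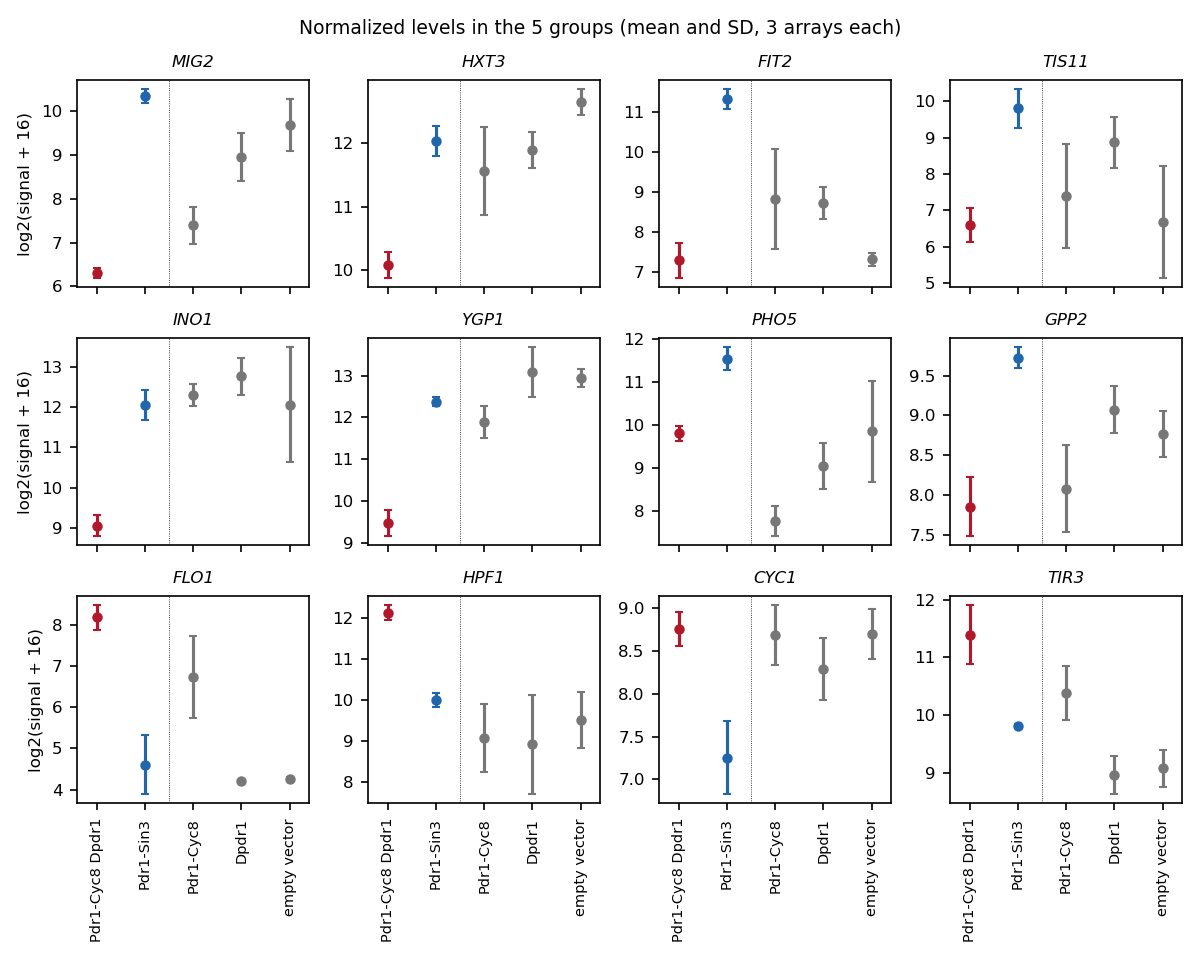
Normalized level, log2(signal + 16), of 12 genes in Pdr1-Cyc8 Dpdr1 (red), Pdr1-Sin3 (blue) and the 3 other groups (grey, right of the dotted line, on the other set of arrays); points are means of 3 arrays and bars are SD. INO1 and YGP1 are low in Pdr1-Cyc8 Dpdr1 alone, at 9.06 and 9.47. FIT2 is highest in Pdr1-Sin3, at 11.32, with 8.8 in Pdr1-Cyc8, 8.7 in Dpdr1 and 7.3 with the empty vector.

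Other genes called higher had varied roles. THI7, a thiamine transporter, had levels of 11.07, 11.21 and 11.51 in Pdr1-Cyc8 Dpdr1, against 9.38, 9.64 and 9.89 in Pdr1-Sin3, a difference of 1.63 (SE 0.248, adjusted p = 0.00279). SPS100, a spore wall protein gene, had levels of 8.56, 8.08 and 8.79 in Pdr1-Cyc8 Dpdr1, against 7.11, 6.44 and 6.92 in Pdr1-Sin3, a difference of 1.65 (SE 0.3, adjusted p = 0.00951). CYC1, iso-1-cytochrome c, had levels of 8.53, 8.87 and 8.88 in Pdr1-Cyc8 Dpdr1, against 6.77, 7.58 and 7.42 in Pdr1-Sin3. Pdr1-Sin3 was the group that stood apart for CYC1, below all other arrays, with a difference of 1.51 (SE 0.271, adjusted p = 0.00918; 0.0578 without Pdr1-Sin3 replicate 1). CYC1 was the only call on a list of 16 cytochrome c and hypoxic genes, and none of 33 respiratory chain genes was called (SDH1 came closest, at 0.80, adjusted p = 0.15, and 0.0461 in a fit of the 6 arrays alone). Of all probe sets, 0.830% were called higher. SNR67, a small nucleolar RNA, was 5.97-fold higher (adjusted p = 0.0226), and lost its call whichever array was left out (0.0617 to 0.0913). With 1 added, the SNR67 call was lost as well. Single calls came from other lists: MMP1, the S-methylmethionine permease, at 2.08 (adjusted p = 0.0139), PDC6, a minor pyruvate decarboxylase, at 1.35 (0.0167), SHC1, an activator of chitin synthase, at 1.03 (0.0362), ERG3, the sterol C-5 desaturase, at 1.05 (0.0354), and ILV1, threonine deaminase, at 1.01 (0.0448). MMP1 and PDC6 were near the floor in Pdr1-Sin3, and their differences ran from 2.64 and 2.60 with 1 added to 1.32 and 0.57 with 64. The calls of SHC1 and ERG3 were lost whichever array was left out (adjusted p = 0.0662 to 0.128), that of ILV1 without any but Pdr1-Sin3 replicate 2 (0.0679 to 0.186), that of MMP1 without Pdr1-Cyc8 Dpdr1 replicate 2 or 3 or Pdr1-Sin3 replicate 1 (0.0553 to 0.0773), and that of PDC6 without Pdr1-Cyc8 Dpdr1 replicate 1 or Pdr1-Sin3 replicate 1 or 3 (0.0586 to 0.0736).

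YOL014W (1.79), POP8, a subunit of RNase P (1.71), EFM1, a methyltransferase of the elongation factor eEF1A (1.51), and TOS2 (1.51) completed the largest higher calls, with adjusted p of 0.0226, 0.0354, 0.0462 and 0.0462. YOL014W and POP8 lost their calls without Pdr1-Cyc8 Dpdr1 replicate 1 or 2 or Pdr1-Sin3 replicate 1 or 3 (adjusted p = 0.0718 to 0.169). EFM1 and TOS2 lost theirs without any array but Pdr1-Sin3 replicate 3 (0.0708 to 0.177). POP8, EFM1 and TOS2 were not called in a fit of the 6 arrays alone. With 1 added, YOL014W, POP8 and EFM1 lost their calls. EFM1 also lost its call with 64 added, TOS2 with median centring and POP8 with a replicate block. SUP51, a transfer RNA gene, had a difference of 1.87 (adjusted p = 8.95e-05). TOS2 and SUP51 were near the floor in Pdr1-Sin3, with differences of 2.19 and 3.03 with 1 added and of 0.83 and 0.93 with 64; TOS2 lost its call with 1 added (0.123). Among genes near the floor in Pdr1-Cyc8 Dpdr1, VMR1, a vacuolar ABC transporter, had levels of 4.74, 6.07 and 5.45 in Pdr1-Cyc8 Dpdr1, against 8.18, 7.92 and 8.67 in Pdr1-Sin3, a difference of -2.84 (SE 0.426, adjusted p = 0.00245). VMR1 is not on the PDR target list and its groups did not overlap. YOR387C, which has the near-identical relative VEL1, had a difference of -3.08 (adjusted p = 0.00202; 0.0804 with 1 added), and the signals of such copies on an array cannot be told apart. YJR154W, of unknown function, had a difference of -2.50 (adjusted p = 0.00654), which was -3.64 with 1 added and -1.40 with 64.

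Genes of ribosome assembly and of the proteasome had mostly positive values that single genes seldom passed. Of 73 ribosome assembly genes, 71 had values above 0, where 53.1% of all probe sets had. The median was 0.62, 45 showed no overlap (26.8% of all probe sets), and none was called; NUG1, a GTPase of large subunit export, came closest at 1.05 (adjusted p = 0.0595). A fit of the 6 arrays alone called 12 of them higher, where it called 1.36% of all probe sets higher. Set against the empty vector, the list averaged -0.08, -0.03 and -0.13 in Pdr1-Cyc8 Dpdr1, against -0.66, -0.66 and -0.78 in Pdr1-Sin3. On the 3 Dpdr1 arrays the same list ran from -1.69 to -0.15, and that spread entered the shared test. Of 33 proteasome genes 30 had values above 0, with a median of 0.45. The test called 2 of them higher, where 0.830% of all probe sets were. RPN9, a subunit of the regulatory particle, and PUP2, a subunit of the core particle, were higher by 1.31 and 0.94 (adjusted p = 0.0119 and 0.0381). RPN9 lost its call without Pdr1-Sin3 replicate 3 (0.0621), and PUP2 without Pdr1-Cyc8 Dpdr1 replicate 1 or 2 or Pdr1-Sin3 replicate 1 or 2 (0.0673 to 0.155). The 31 cytosolic ribosomal protein genes had a median of 0.22 and no call, and RPL9A, whose signal may include its near copy RPL9B, had the smallest p, at 0.73 (adjusted p = 0.299).

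Arginine synthesis and mating genes showed values without calls. All 8 arginine genes measured had values below 0, with a median of -0.61, and ARG1, argininosuccinate synthetase, had levels of 9.11, 8.63 and 8.87 in Pdr1-Cyc8 Dpdr1, against 10.82, 10.79 and 10.94 in Pdr1-Sin3. The groups were well apart, with a value of -1.98, and ARG1 did not pass in the shared fit (adjusted p = 0.148) but did in a fit of the 6 arrays alone (0.00148); its SD was 1.17 in Pdr1-Cyc8 and 1.83 in Dpdr1. AGA1 and AGA2, the subunits of a-agglutinin, had values of -1.06 and -1.25 (adjusted p = 0.0595 and 0.0592, and 0.0156 and 0.012 in a fit of the 6 arrays alone). Other lists had at most 1 call each, and ribonucleotide reductase genes none (RNR2 at 0.56, adjusted p = 0.358). Of all probe sets, 1.70% were called lower and 0.830% higher.

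**Figure D5:**
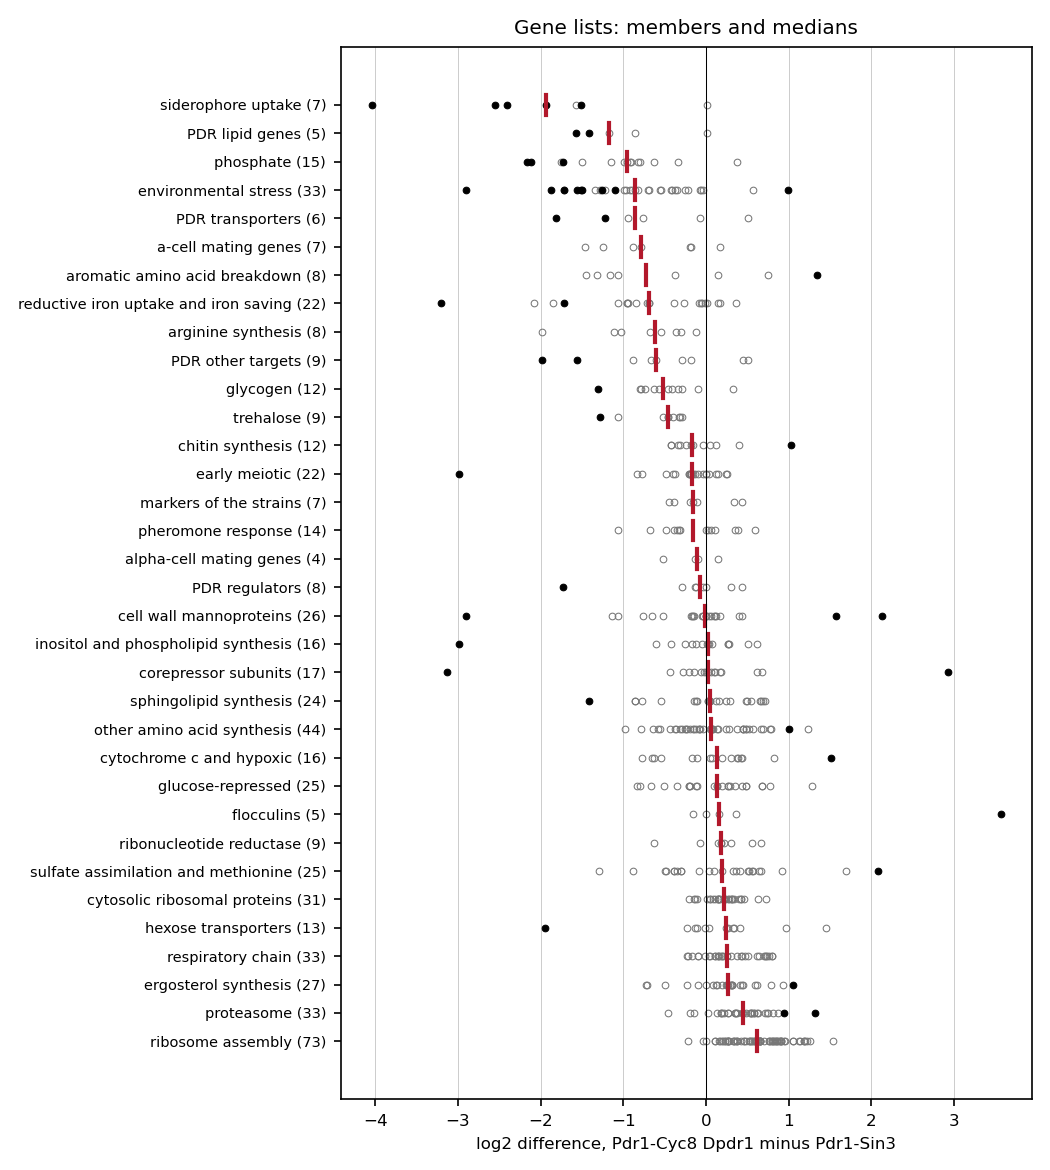
Log2 difference of Pdr1-Cyc8 Dpdr1 minus Pdr1-Sin3 for each measured member of 34 lists (number of members in parentheses), ordered by median (red bar). Black points are called at a limma adjusted p under 0.05 and open points are not; the medians run from -1.93 for siderophore uptake to 0.62 for ribosome assembly.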

How the data were processed

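RNA of 15 cultures was hybridized to 15 arrays. Per the labels' protocols, cRNA was made from 10 ug of total RNA. The deposited intensity values are linear, with 1 per probe set; how they were summarized, background corrected and scaled was not stated in the material used. All arrays had a mean of 500.49 to 500.67 after trimming 2% at both ends. Intensities were quantile normalized over 15 arrays and converted to log2(value + 16). Groups were assigned from titles, which call the 3 arrays of a group biological replicates.

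Group means were fitted with limma 3.58.1 in R 4.3.3 (5 groups, 15 arrays, 10 residual and 5.35 prior degrees of freedom), with Benjamini-Hochberg adjustment across the 9275 probe sets tested; an adjusted p under 0.05 was called. The procedure was also run on simulated data with independent noise and the same spread in all groups. That run does not cover groups of unequal spread, which these data hold. Per the platform annotation, 6504 probe sets matched 1 gene, 328 several and 2443 none, covering 5656 genes. The brightest probe set stood for a gene. The 34 lists hold 630 genes, 609 of them measured. The members and lists were chosen with earlier results of these data known.

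Genes were named by rule: PDR1, PDR3, CYC8, SIN3, the PDR targets, the 10 largest rises and falls without overlap and with a signal of at least 32 in both groups, up to 4 each way with less, and up to 4 called members of a list, or the member with the smallest p. ENB1, ARN1, FIT1, FET3, FTR1, PHO84, PHO3, GRE1, STE2, TUP1 and RPD3 were named after their values were seen. Plots were made in Python 3.11.15 with matplotlib 3.10.9. The alternatives were other normalizations, added constants, filters, priors, weights and samples, a replicate block, and omission of single arrays.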

Additional observations from a re-analysis of the deposited data

How the results depend on the processing

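The count of calls depended on the settings more than its direction did: lower calls outnumbered higher ones in each of them. Against 235 calls (77 higher, 158 lower), quantile normalization and a fit of the 6 arrays alone gave 427 (133 and 294), a fit of those 6 with the main normalization 414 (126 and 288), array weights 533 (201 and 332), and 142 calls (41 and 101) came with a pseudocount of 1, against 336 (125 and 211) with one of 64. Leaving out 1 array gave 67 to 175 calls, 20 to 57 higher and 46 to 118 lower, the fewest without Pdr1-Sin3 replicate 1. Replicate numbers did not pair the samples (correlations of same-numbered deviations -0.01, 0.10 and -0.01), and the replicate block gave 166 calls, 49 of them higher. The median log2 difference of PDR targets was -0.68 with values as deposited, -0.92 with a pseudocount of 1, -0.58 with 64, -0.86 without the dimmest 25% of probe sets, and -0.79 to -0.71 with 1 array left out. The number of PDR targets called lower stayed between 4 and 8. Of 52 named genes called, 22 kept their call under every alternative run and 23 whichever of the 6 arrays was left out. Among the 76 genes named by rule, a fit of the 6 arrays with the main normalization lost 5 calls and gained 7. A pseudocount of 1 lost 18 calls of these genes, the replicate block 6 and median centring 4. PDR10, at -0.08, turned to 0.11 with values as deposited, and ran from -0.159 to 0.041 with 1 array left out; RSB1, at 0.02, turned to -0.11 with median centring and ran from -0.17 to 0.234 with 1 array left out. Neither passed under any of these. The cause of these shifts was not tested. Signal near background limits FLO1, MMP1, SUP51, TOS2, PDC6, GRE2, YGR035C, YOR387C, VMR1 and YJR154W, whose sizes move with the added constant. Sizes of other genes moved as well. EFM1 had deposited signals of 17.9, 55.5 and 73.7 in Pdr1-Sin3, and its difference ran from 0.97 to 1.895 over the settings.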

Other observations

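Of 78 probe sets for Ty retrotransposons, the mobile elements of the yeast genome, 21 were called lower in Pdr1-Cyc8 Dpdr1. Of all probe sets, 1.70% were called lower. The others of the 78 did not pass. This family was picked after its values were seen and carries no test of its own. All 78 had values below 0, with a median log2 difference of -0.82. On 43 of the 78 the 3 Pdr1-Cyc8 Dpdr1 arrays lay below the other 12 arrays of the series, as they did on 3.71% of all probe sets. The 14 probe sets annotated to Ty2 genes alone held 10 of the calls, with a median of -1.52. Their median level was 8.96 in Pdr1-Cyc8 Dpdr1, against 11.01 in Pdr1-Sin3, 10.85 in Pdr1-Cyc8, 10.97 in Dpdr1 and 10.83 with the empty vector. The 36 annotated to Ty1 genes alone held the other 11, with a median of -0.92. The 28 that list genes of Ty1 and Ty2 together held none, and all lay between -0.999 and -0.53. Of the 78, 66 list several genes, and copies of an element cannot be told apart on these arrays.

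Of 3 probe sets annotated to several flocculin genes at once, 2 were called higher, where 0.830% of all probe sets were. Values ran from 1.30 to 2.42 over the 3. Their median level was 9.27 in Pdr1-Cyc8 Dpdr1, against 7.29 in Pdr1-Sin3, 9.19 in Pdr1-Cyc8, 7.32 in Dpdr1 and 7.20 with the empty vector. FLO1 is the flocculin whose own probe set was called, and FLO5's own probe set had a value of -0.16.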
